A study of Mus musculus with 13 samples.

Results

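The 42 genes described here encode the contractile, calcium release and energy machinery of skeletal muscle fibers, and they were measured in gluteal white adipose tissue (WAT), a subcutaneous fat depot over the hip. They are a list of named genes chosen for function, 42 of 34419 genes in the count table, and all 42 were present. The list falls into 6 genes of the thin filament, 7 of the thick filament and titin, 9 of the Z-disc and costamere, 12 of excitation-contraction coupling and calcium handling, and 8 muscle energy enzymes with myoglobin. RNA-seq had been run on 13 libraries, 7 from male C57BL/6J mice that had lived at 22°C since birth and 6 from such mice at 29°C, all taken at 13 weeks. Fur of the hind body was cleared in both groups from weaning on, and cages held a single mouse without a nest. The labels give no other difference between the groups than the temperature of the chamber. The comparison stands beside the study's work on adipocytes grown in culture at a cool temperature, and addresses which transcripts of a fat depot differ between mice kept cooler and warmer.

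Skeletal muscle fibers contract when myosin of the thick filament pulls on actin of the thin filament, within a sarcomere bounded by Z-discs and held together by titin. A nerve impulse opens calcium release channels of the sarcoplasmic reticulum, and pumps and buffers then return the calcium to the store. Fast fibers and slow fibers use different isoforms of many of these proteins, and fast fibers rely more on glycogen and creatine phosphate while slow fibers rely more on oxygen carried by myoglobin. White adipocytes are not known for this machinery, so the list was first examined as a set of muscle markers in a fat depot.

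The libraries held between 22356637 and 25245785 counts assigned to genes, so that 3 counts, the floor used here, corresponded to between 0.119 and 0.134 CPM (counts scaled to a common library size). Totals fell into a cluster of 5 lower libraries, all at 22°C, and 8 higher ones, 2 at 22°C and 6 at 29°C. Mature adipocyte genes were abundant in every library, with a summed level between 23800 and 37580 CPM over 10 markers. No pair of libraries agreed within sampling noise. In bulk tissue, more muscle fibers in a sample and more RNA per fiber cannot be told apart.

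Promoter sequences of 3 members were examined for motifs of muscle transcription factors. They are shown because their transcripts were among the most abundant of the list and were high together in 22°C replicates 1 and 7; in 29°C replicate 6 they parted, with 1926 counts of *Acta1* beside 24 of *Atp2a1* and 11 of *Ckm*. Each window runs from 250 bases before to 50 bases after the RefSeq transcript start on GRCm38.p6, 5′ to 3′ on the strand of the gene, and capitals mark E-boxes, the letters CANNTG bound by MyoD and related myogenic factors. *Acta1* encodes the actin of skeletal muscle thin filaments (chr8:123894726-123895025, minus strand, 2 E-boxes). *Atp2a1* encodes the fast fiber calcium pump SERCA1 (chr7:126463024-126463323, minus strand, 1 E-box). *Ckm* encodes muscle creatine kinase (chr7:19410844-19411143, plus strand, 1 E-box).
Acta1: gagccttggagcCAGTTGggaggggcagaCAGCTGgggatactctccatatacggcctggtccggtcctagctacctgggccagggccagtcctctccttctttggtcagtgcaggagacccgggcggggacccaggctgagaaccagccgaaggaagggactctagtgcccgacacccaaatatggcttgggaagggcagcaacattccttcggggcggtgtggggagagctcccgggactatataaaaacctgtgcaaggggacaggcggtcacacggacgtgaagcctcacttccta
Atp2a1: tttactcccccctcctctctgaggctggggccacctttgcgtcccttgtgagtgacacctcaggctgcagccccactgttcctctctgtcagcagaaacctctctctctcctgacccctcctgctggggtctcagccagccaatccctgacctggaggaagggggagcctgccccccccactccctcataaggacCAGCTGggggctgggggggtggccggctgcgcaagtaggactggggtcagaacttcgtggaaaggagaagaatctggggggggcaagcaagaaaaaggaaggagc
Ckm: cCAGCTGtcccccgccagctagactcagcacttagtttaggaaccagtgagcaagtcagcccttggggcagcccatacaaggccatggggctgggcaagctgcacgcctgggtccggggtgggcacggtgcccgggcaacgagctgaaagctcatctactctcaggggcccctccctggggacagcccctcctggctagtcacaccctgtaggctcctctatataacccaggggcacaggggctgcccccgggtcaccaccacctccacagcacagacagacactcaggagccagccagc
Windows were at hand for 31 of the 42 members, in 40 windows because some genes have more than 1 start. An E-box was found in 34 of the 40 windows (85%) and in 72.3% of the 32851 windows of all genes, so these letters are common. The element bound by MEF2 factors, searched on both strands, was found in 3 of the 40 windows (7.5%), those of *Myoz2*, *Ttn* and *Xirp2*, and in 0.557% of all windows. A match of letters is a description of the window and not a measured binding site.

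The 42 members followed much the same order across the 13 libraries. Together they took 5.72% of the counts of 22°C replicate 1 and 7.35% of those of 22°C replicate 7. In the other 5 libraries at 22°C the share was 1.585% in replicate 4, 0.718% in replicate 2, and between 0.102% and 0.1465% in replicates 3, 5 and 6. At 29°C the share was 0.731% in replicate 1, 0.702% in replicate 5, 0.277% in replicate 4, and 0.0822%, 0.0458% and 0.0236% in replicates 3, 2 and 6. The groups overlapped, and 29°C replicates 1, 4 and 5 had larger shares than 22°C replicates 3, 5 and 6. The single highest library was 22°C replicate 7 for 24 members and 22°C replicate 1 for the other 18, and these were the top 2 libraries for 37 members. The lowest was 29°C replicate 6 for 38 members, and 18 of the 42 had at most 3 counts there, with 3 at none. After the mean of each temperature was removed, a single principal component held 92.4% of the variance of the 42 log2 levels, and the next held 3.94%.

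**Figure D1:**
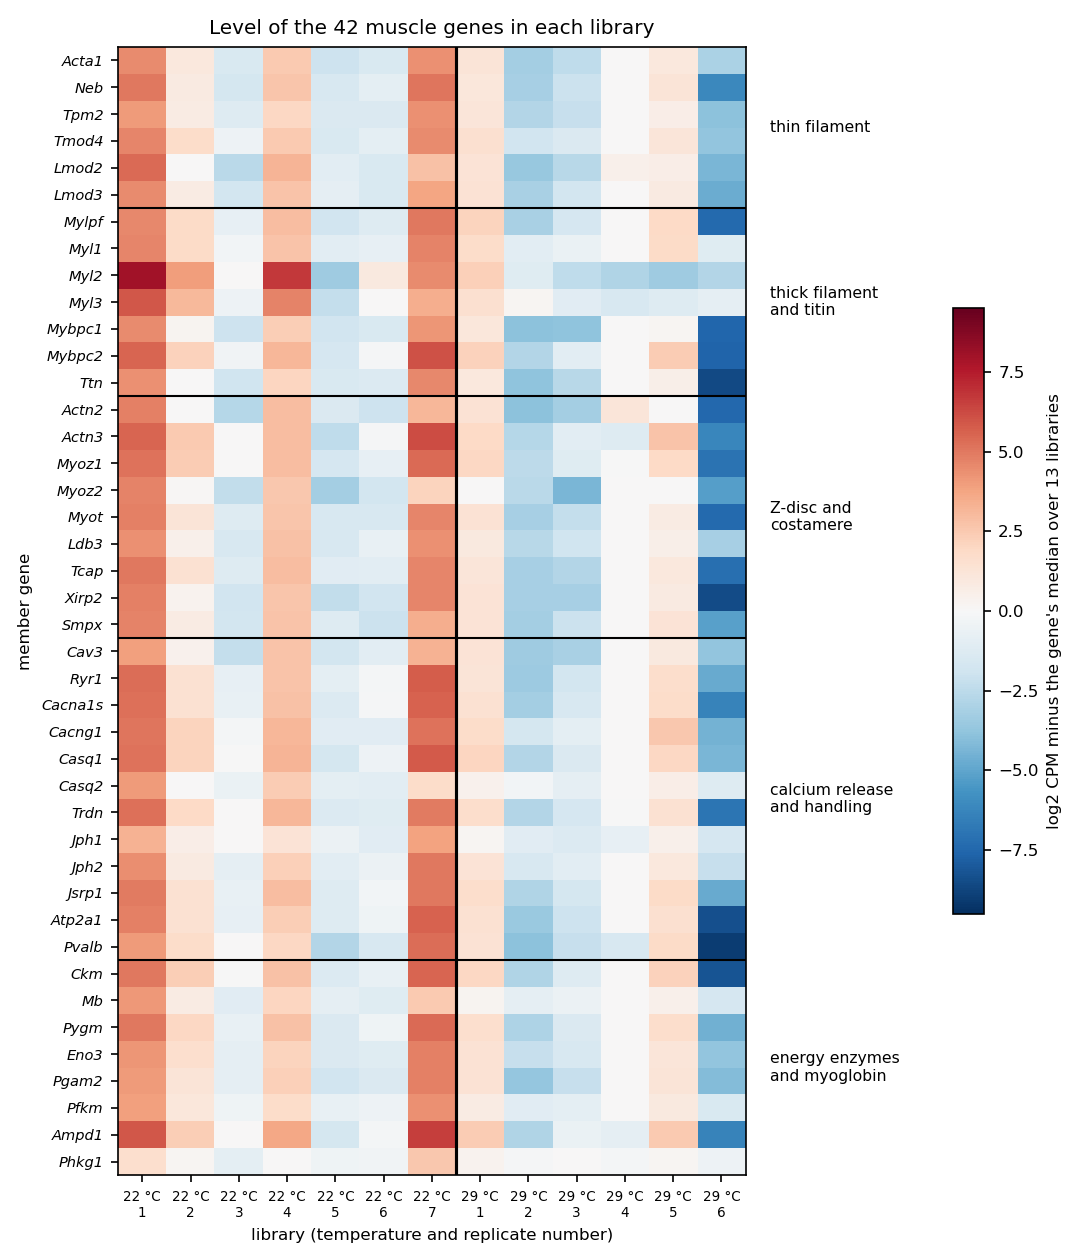
Heat map of the 42 members (vertical axis, ordered by role) in the 13 libraries (horizontal axis, temperature and replicate number). Color gives log2 CPM minus the median of that gene over the 13 libraries. Columns are colored nearly as a whole, with 22°C replicates 1 and 7 red and 29°C replicate 6 blue, whereas *Phkg1*, *Casq2*, *Mb* and *Jph1* are paler than the rest.

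Thin filament genes were led by *Acta1* (ENSMUSG00000031972.6). Its lowest, median and highest levels were 173, 1312 and 14940 CPM at 22°C, and 71.9, 394.5 and 1581 CPM at 29°C. Only 3 of 7 libraries at 22°C lay above the highest at 29°C, so the groups overlapped. The mean was 4886 CPM with an SD of 6520 over the 7 mice at 22°C, and 639.7 CPM with an SD of 669.8 over the 6 at 29°C, and the difference did not pass (edgeR log2 fold change 2.93, SE 1.23, P-adj = 0.227). *Neb* (ENSMUSG00000026950.19) encodes nebulin, the giant protein that runs along the thin filament. Its levels were 27.8, 168 and 3056 CPM at 22°C, and 1.22, 56.7 and 210 CPM at 29°C. Again 3 libraries at 22°C were above all at 29°C, and 3 at 29°C were above the lowest at 22°C (edgeR log2 fold change 3.47, SE 1.40, P-adj = 0.214). The remaining thin filament members were *Tpm2*, a tropomyosin, the pointed-end cap *Tmod4*, and the leiomodins *Lmod2* and *Lmod3*, which nucleate actin. Their log2 fold changes lay between 2.75 (*Lmod3*) and 3.21 (*Lmod2*), and none passed the threshold. *Tpm2* was the most abundant of these, at 536 CPM on average over the 13 libraries, and *Lmod3* the least, at 13.1 CPM.

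The thick filament and titin genes included the largest fold change between the temperatures. *Ttn* (ENSMUSG00000051747.16) encodes titin, the spring that spans from Z-disc to M-line. It measured 56.4, 209 and 4825 CPM (lowest, median and highest) at 22°C, and 0.462, 121 and 407 CPM at 29°C. The fold between the highest and lowest library was 85.6 at 22°C and 880.0 at 29°C. *Ttn* had a log2 fold change of 3.21 (edgeR P-adj = 0.249, with an SE of 1.42). *Myl1* (ENSMUSG00000061816.16) encodes the essential light chain of fast myosin. Its levels were 66.4, 475 and 3466 CPM at 22°C, and 60.1, 108 and 476 CPM at 29°C. The lowest libraries of the 2 temperatures thus lay close together, and the log2 fold change was 2.49 (edgeR P-adj = 0.220, with an SE of 1.02).

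*Myl2* (ENSMUSG00000013936.13), the regulatory light chain of slow and cardiac myosin, had the largest fold change of the 42. Its levels were 0, 13.3 and 214 CPM at 22°C, and 0, 0.0596 and 3.95 CPM at 29°C. It was without a count in 22°C replicate 5 and in 29°C replicate 5, where a count of 0 allows up to 0.133 and 0.120 CPM. The 4 highest libraries were all at 22°C, and the lowest at 22°C, without a count, could not be told apart from the 4 libraries at 29°C with at most 3 counts. The log2 fold change of *Myl2* was 6.01 (edgeR P-adj = 0.123, with an SE of 1.73), and its exact permutation p of 0.0297 (two-sided, 1716 divisions) was the lowest of the list. P-adj of *Myl2* lay between 0.0123 (DESeq2) and 0.421 over 25 other fits, and was below the threshold in 3 of them. In 29°C replicate 1 there were 103 counts of *Myl2*, against at most 8 in any other library at 29°C, and the log2 fold change was 8.93 without that library. It was 3.76 with a term for the lower and higher totals, 3.78 in the libraries with higher totals and 2.78 with limma on the deposited log2 values. In the higher-total libraries *Ryr1* had the largest value, 4.59, and *Myl2* no longer did. With all libraries, the slow essential light chain *Myl3* had the next largest value, 4.09 (edgeR P-adj = 0.131, with an SE of 1.21). For *Myl3*, 4 libraries at 22°C lay above all those at 29°C, but all 6 at 29°C lay above 22°C replicate 5, which had 3 counts. The fast regulatory light chain *Mylpf* and the myosin binding proteins *Mybpc1* and *Mybpc2* had log2 fold changes of 2.60, 3.24 and 3.29, and did not pass.

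At the Z-disc, *Actn3* (ENSMUSG00000006457.5) encodes the α-actinin of fast fibers that crosslinks actin. It measured 9.01, 273 and 3590 CPM at 22°C, and 0.588, 21.95 and 308 CPM at 29°C. With 4 libraries at 29°C above the lowest at 22°C, the groups overlapped widely (edgeR log2 fold change 3.38, SE 1.503, P-adj = 0.252). *Xirp2* (ENSMUSG00000027022.15) encodes an actin-binding protein of Z-discs and intercalated discs. Its levels were 8.72, 54.8 and 1241 CPM at 22°C, and 0.0420, 24.7 and 107 CPM at 29°C, where the lowest value was a single count in replicate 6. The log2 fold change of *Xirp2* was 3.27 (edgeR P-adj = 0.258, with an SE of 1.47). The other 7 members were *Actn2*, the calsarcins *Myoz1* and *Myoz2*, myotilin (*Myot*), cypher (*Ldb3*), telethonin (*Tcap*), which caps titin, and the small muscle protein *Smpx*. Their log2 fold changes lay between 2.66 (*Smpx*) and 3.40 (*Tcap*), and their P-adj between 0.189 (*Ldb3*) and 0.316 (*Actn2*) by edgeR.

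Excitation-contraction coupling and calcium handling was the largest group. *Atp2a1* (ENSMUSG00000030730.13), which pumps calcium back into the sarcoplasmic reticulum of fast fibers, was its most abundant member. It measured 153, 976.7 and 17460 CPM at 22°C, and 1.01, 221 and 1011 CPM at 29°C. At 29°C, 3 libraries were above the lowest at 22°C, and the difference did not pass (edgeR log2 fold change 3.41, SE 1.46, P-adj = 0.238). *Pvalb* (ENSMUSG00000005716.17) encodes parvalbumin, the soluble calcium buffer that speeds relaxation of fast fibers. Its levels were 15.9, 362 and 4277 CPM at 22°C, and 0.126, 30.85 and 377 CPM at 29°C, where the lowest value was 3 counts in replicate 6. *Pvalb* had a log2 fold change of 3.04 (edgeR P-adj = 0.298, with an SE of 1.49) and the largest SD of log2 levels at 29°C of the 42, 3.965.

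The release complex itself had similar values across its parts. *Ryr1*, the calcium release channel, had a log2 fold change of 3.72 (SE 1.39), and *Cacna1s*, the voltage sensor that opens it, of 3.49 (SE 1.37). The γ subunit of that sensor, *Cacng1*, had 2.74, and triadin (*Trdn*) and *Jsrp1*, which anchor calsequestrin and couple the sensor to the store, had 3.26 and 3.001. The store protein of fast fibers, calsequestrin 1 (*Casq1*), had 3.28. Junctophilins hold the store against the cell membrane, and *Jph1* had 2.58 (SE 0.81) and *Jph2* 3.06 (SE 1.10). Caveolin 3 (*Cav3*), of the muscle membrane, had 2.42, and calsequestrin 2 (*Casq2*), of slow and cardiac muscle, 2.10. None of these 10 passed, with P-adj between 0.149 (*Jph1*) and 0.294 (*Cav3*) by edgeR, and between 3 and 5 libraries at 29°C lay above the lowest at 22°C for each.

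Among the energy genes, *Ckm* (ENSMUSG00000030399.3) encodes muscle creatine kinase, which regenerates ATP from creatine phosphate. It measured 63.6, 817.5 and 7335 CPM at 22°C, and 0.462, 113 and 710.1 CPM at 29°C. Its 4 highest libraries were at 22°C, but its lowest library at 22°C was below 4 at 29°C (edgeR log2 fold change 3.02, SE 1.41, P-adj = 0.273). *Pygm* (ENSMUSG00000032648.15) encodes muscle glycogen phosphorylase. Its levels were 28.35, 298.5 and 3176 CPM at 22°C, and 3.07, 51.5 and 241 CPM at 29°C, with 3 libraries at 29°C above the lowest at 22°C. The log2 fold change of *Pygm* was 3.27 (edgeR P-adj = 0.211, with an SE of 1.30). Enolase 3 (*Eno3*), phosphoglycerate mutase 2 (*Pgam2*) and phosphofructokinase (*Pfkm*), enzymes of glycolysis, had log2 fold changes of 2.86, 2.85 and 2.65, *Ampd1*, the AMP deaminase of muscle, 3.58, and myoglobin (*Mb*) 2.31.

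*Phkg1* (ENSMUSG00000025537.13), the catalytic subunit of muscle phosphorylase kinase, had the smallest fold change. It measured 18.9, 35.8 and 211 CPM at 22°C, and 25.1, 34.6 and 45.1 CPM at 29°C. Medians of the 2 groups were close, and only 2 libraries, 22°C replicates 1 and 7, were above the highest at 29°C. The log2 fold change was 0.93 (edgeR P-adj = 0.3525, with an SE of 0.51), and it was -0.23 when both of those libraries were left out.

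**Figure D2:**
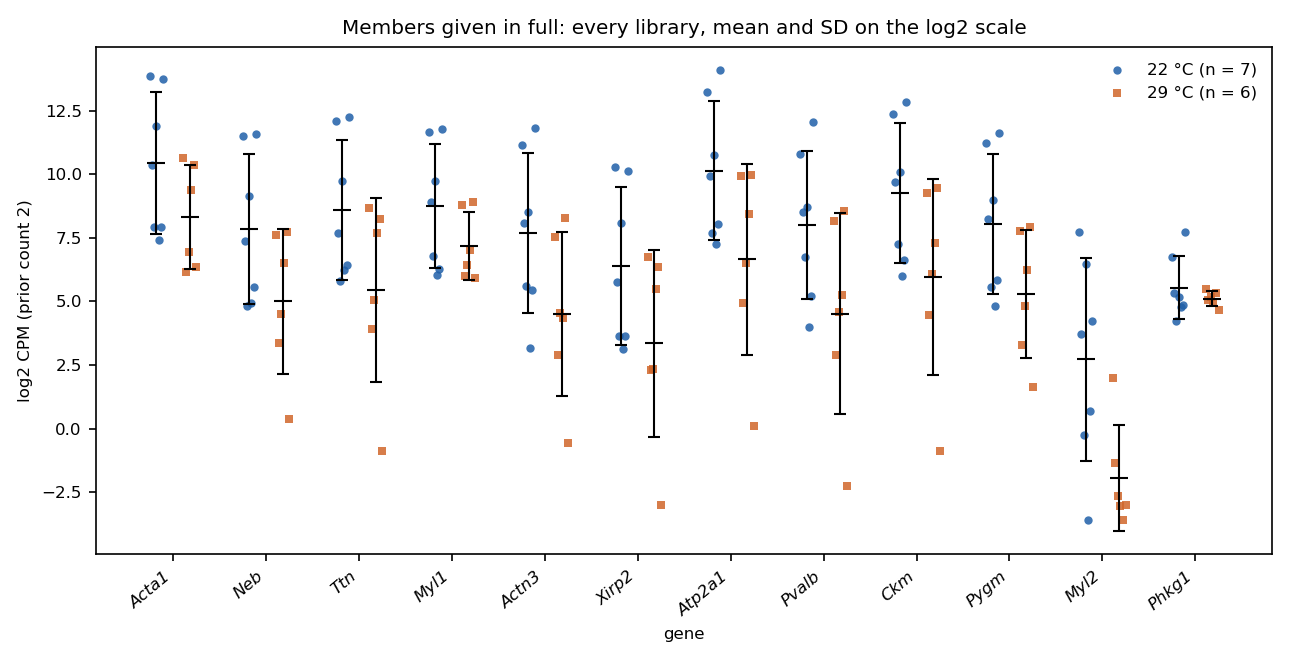
Levels of the 12 members given in full (horizontal axis) as log2 CPM with a prior count of 2 (vertical axis), 1 point per library, with blue circles for 22°C (n = 7) and orange squares for 29°C (n = 6). Black marks give the mean and SD on the log2 scale; points of the 2 temperatures overlap for every gene, and *Phkg1* at 29°C is the tightest group, with an SD of 0.30.

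Across the whole list, all 42 members had a positive log2 fold change, where 51.6% of the 17779 genes tested did. The median was 3.08 (range 0.93 to 6.01), against 0.007 over all genes. No member passed P-adj below 0.1 by edgeR, where 1.94% of all genes did, and P-adj lay between 0.123 and 0.3525. At an unadjusted p below 0.05, 35 of 42 members were higher at 22°C, where 10.3% of all genes were. DESeq2, which the study used, called 28 of 42 members higher, where it called 5.58% of genes with an adjusted p. The exact permutation test over log2 CPM had 1 member, *Myl2*, at an unadjusted p below 0.05, where 7.26% of all genes were higher at that level, and none after adjustment. In no member were the groups free of overlap, which 1.24% of all genes were. The standard errors were correspondingly wide, with a median of 1.32 on the log2 scale against 0.13 over all genes.

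These values moved when single libraries were left out. Without 22°C replicates 1 and 7, an alternative chosen after the data were seen, 41 of 42 members kept a positive log2 fold change, but the median was 0.85 and only 2 members had an unadjusted p below 0.05 by edgeR. Leaving out 22°C replicate 1 alone took the number with an unadjusted p below 0.05 from 35 to 9, leaving out 22°C replicate 7 alone took it to 13, and it was 15 and 12 when 29°C replicate 2 or 3 was the library left out. The corresponding numbers for 29°C replicates 4 and 6 were 19 and 23. Calls over the whole table (edgeR P-adj below 0.1) fell in these fits as well. From 345 genes they went to 108 without 22°C replicate 1, 184 without 22°C replicate 7, and 271 without both. Without 29°C replicates 2, 3, 4 and 6 they were 49, 32, 115 and 142. They also fell without 29°C replicates 1 and 5, to 91 and 109 genes, but 36 members kept an unadjusted p below 0.05 in each of those fits (edgeR). The 2 kinds of count, taken at different thresholds, thus did not always fall together. Within the 8 libraries of the higher total cluster, 22°C replicate 6 and replicate 7 were the only mice at 22°C. The median there was 3.68 and no member passed, where 8 of 19033 genes did. An unadjusted p below 0.05 by edgeR was reached by 29 members. For the fits of this paragraph the share of all genes at that level was not taken. The member counts at an unadjusted p here thus have no background beside them. Leaving out 22°C replicate 6 let *Jph1*, *Myl2* and *Myl3* pass, with P-adj from 0.0913 to 0.09495 (edgeR), in a fit where 3.7% of all genes passed, against 1.94% with all libraries.

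**Figure D3:**
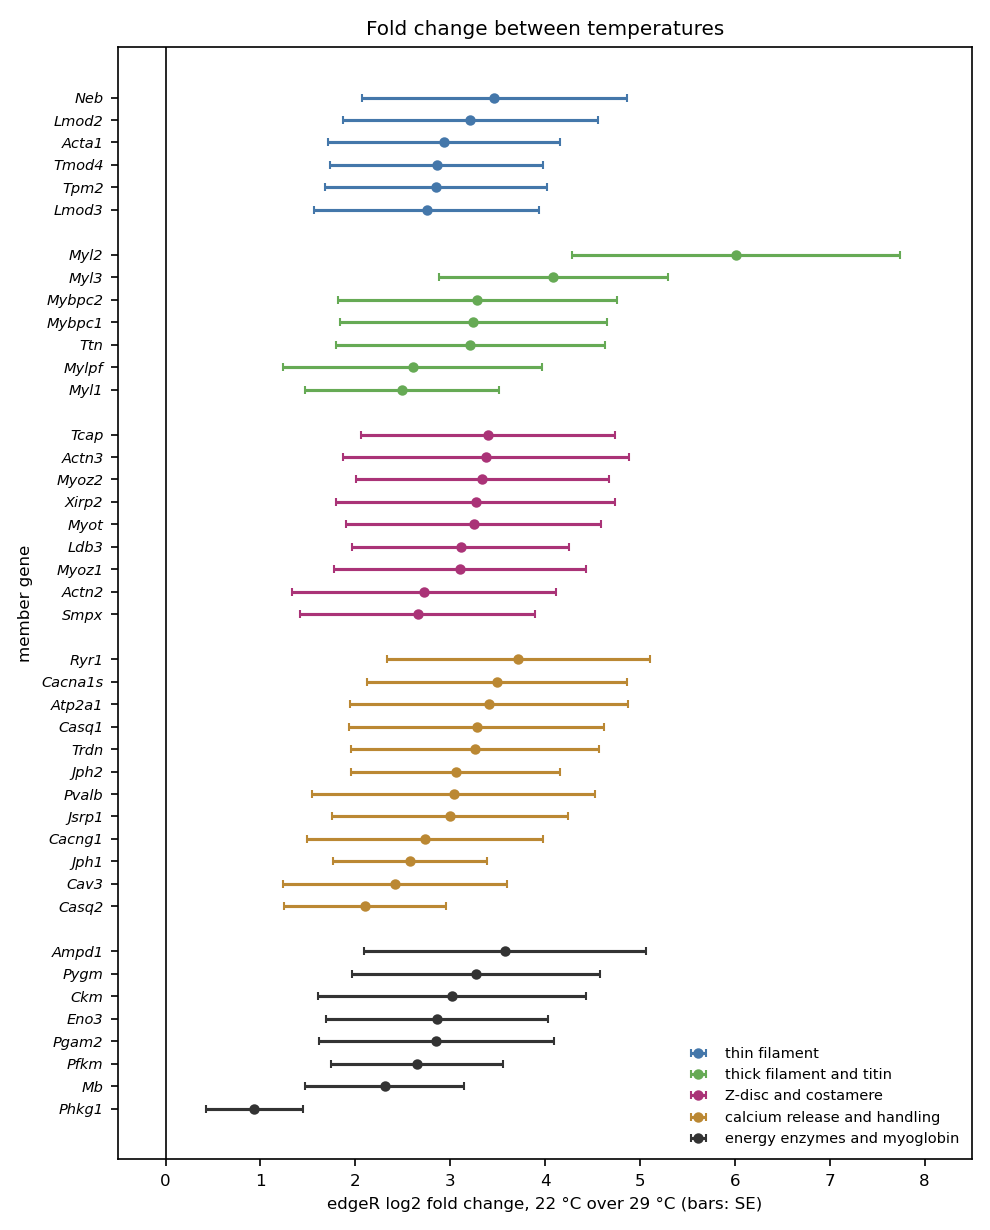
Log2 fold change of each member at 22°C over 29°C from edgeR (horizontal axis; bars are SE), with genes on the vertical axis colored by role. The values cluster near 3 in every role, *Myl2* stands at 6.01 and *Phkg1* at 0.93, and no member passed P-adj below 0.1.

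The spread within a temperature set these genes apart from the bulk of the table. At 22°C the SD of log2 CPM had a median of 2.74 over the members (range 1.24 to 3.99), against 0.25 over all genes tested, and at 29°C it was 2.56 (range 0.30 to 3.97), against 0.21. All 42 members at 22°C and 39 at 29°C were above the 95th percentile of SD over all genes, and 28 at each temperature were above the 99th. The SD was larger at 22°C than at 29°C for 26 of the 42. Those with little spread at 29°C were *Phkg1* (0.30), *Casq2* (0.72), *Mb* (0.79), *Jph1* (0.83) and *Pfkm* (1.001). With 22°C replicate 1 at 14940 CPM of *Acta1* and 22°C replicate 5 at 173 CPM, mice that shared a temperature, an age and a strain differed by 86.6-fold in this transcript.

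Per kilobase of exon, the median level over the 13 libraries ranked *Acta1* first, at 433 CPM per kb. *Pvalb* and *Atp2a1* followed at 103 and 101 CPM per kb, and their order did not exceed the spread between libraries. *Mylpf*, *Myl1*, *Ckm*, *Tpm2* and *Mb* lay between 48.2 and 66.4 CPM per kb. At the other end were the slow fiber proteins *Myl2*, *Myl3* and *Casq2*, at 0.394, 0.452 and 0.462 CPM per kb. This order depended on the use of medians. By the mean over the 13 libraries, which the highest libraries dominate, *Myl2* was at 13.5 CPM per kb, above *Lmod2* (10.9), *Phkg1* (8.04), *Ttn* (7.51) and *Jph1* (5.55), while *Mb*, at 130 CPM per kb, fell below *Actn3* (189), *Pygm* (169.5) and *Eno3* (159.8).

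Although levels spanned a wide range, most members kept close to a fixed ratio to each other outside 29°C replicate 6, the library with the least muscle RNA. The log2 ratio to *Acta1*, in libraries where both genes had at least 20 counts, had a median SD of 0.52 over 41 members, where their own levels in those libraries had 2.58. This SD was below that of the level for 39 of 41 members. The minimum of 20 counts left 29°C replicate 6 out of the ratio for 26 of the 41. For the 15 that kept it, the median SD was 0.754 with that library and 0.478 without it. *Atp2a1* was 1.25% of *Acta1* there, against a median of 73.9% in the other libraries, and the SD of its ratio was 1.684 with that library and 0.478 without it. Those of *Neb* were 0.984 and 0.308, and those of *Ryr1* 0.841 and 0.522. The ratio to *Ckm*, which leaves out 29°C replicate 6 for every member, was added after the data were seen; it had a median SD of 0.58 and was again below the SD of the level for 39 of 41. The tightest to *Ckm* were *Myoz1* (0.17), *Casq1* (0.23), *Pygm* (0.25) and *Mylpf* (0.29). Per length, *Pygm* was between 27.6% and 51.9% of *Ckm* in the 12 libraries with enough counts, while *Ckm* itself ranged from 63.6 to 7335 CPM at 22°C. *Ryr1* was likewise between 78.0% and 116% of its partner *Cacna1s* in those libraries.

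The widest ratios to *Ckm* belonged to *Phkg1* (SD 1.93), *Casq2* (1.86), *Myl2* (1.79), *Myl3* (1.60) and *Mb* (1.33), followed by *Lmod2*, *Myoz2* and *Actn2* (1.22 to 1.25). Among these, *Myl2*, *Myl3*, *Myoz2*, *Casq2* and *Actn2* are isoforms favored by slow fibers or shared with the heart. *Mb* encodes myoglobin, on which slow fibers rely more. Summed per length, the slow members *Myl2*, *Myl3*, *Myoz2* and *Casq2* were between 0.129% (22°C replicate 7) and 2.90% (22°C replicate 4) of slow and fast members together, the fast ones being *Mylpf*, *Myl1*, *Mybpc2*, *Actn3*, *Myoz1*, *Casq1*, *Atp2a1* and *Pvalb*. In 22°C replicate 1 this slow share was 1.75%, so the 2 libraries with the most muscle RNA differed in it. *Myl2* was 6.97% of *Mylpf* per length in 22°C replicate 1, 9.12% in replicate 4 and 0.459% in replicate 7. In 29°C replicate 5, *Myl2* had no count beside 6726 counts of *Mylpf*. *Myl3* followed, at 1.87%, 3.12% and 0.325% of *Myl1* in 22°C replicates 1, 4 and 7.

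*Actn2* did not follow the slow light chains. This α-actinin, made in all fiber types, was 187% of *Actn3* per length in 29°C replicate 4 and 70.3% in 22°C replicate 5, and between 4.24% and 34.7% in the other 10 libraries with enough counts. In 29°C replicate 4 *Myl2* had only 1 count and *Myl3* 7 counts, so the highest *Actn2* ratio lay beside one of the lowest *Myl2* ratios. *Actn2* was not alone in this, since the slow member *Myoz2* also had its highest ratio there, 11.7% of *Myoz1* per length (87 counts). *Mybpc1* likewise had its highest ratio to *Mybpc2* there, 134%. *Casq2* did not, at 3.14% of *Casq1* against 26.7% in 29°C replicate 6, where it had 12 counts. The pairs of *Actn2* with *Actn3*, *Pygm* and *Mb* with *Ckm*, *Pvalb* with *Atp2a1* and *Ryr1* with *Cacna1s* were chosen after the values were seen. In the 12 libraries with at least 20 counts of *Ckm*, *Mb* ranged from 10.6% of *Ckm* per length in 22°C replicate 7 to 356% in 29°C replicate 2. In 29°C replicate 6, which this range leaves out, *Mb* had 561 counts beside 11 of *Ckm*. *Pvalb* ranged from 34.7% to 171% of *Atp2a1* in the 12 libraries where *Pvalb* had more than 3 counts.

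**Figure D4:**
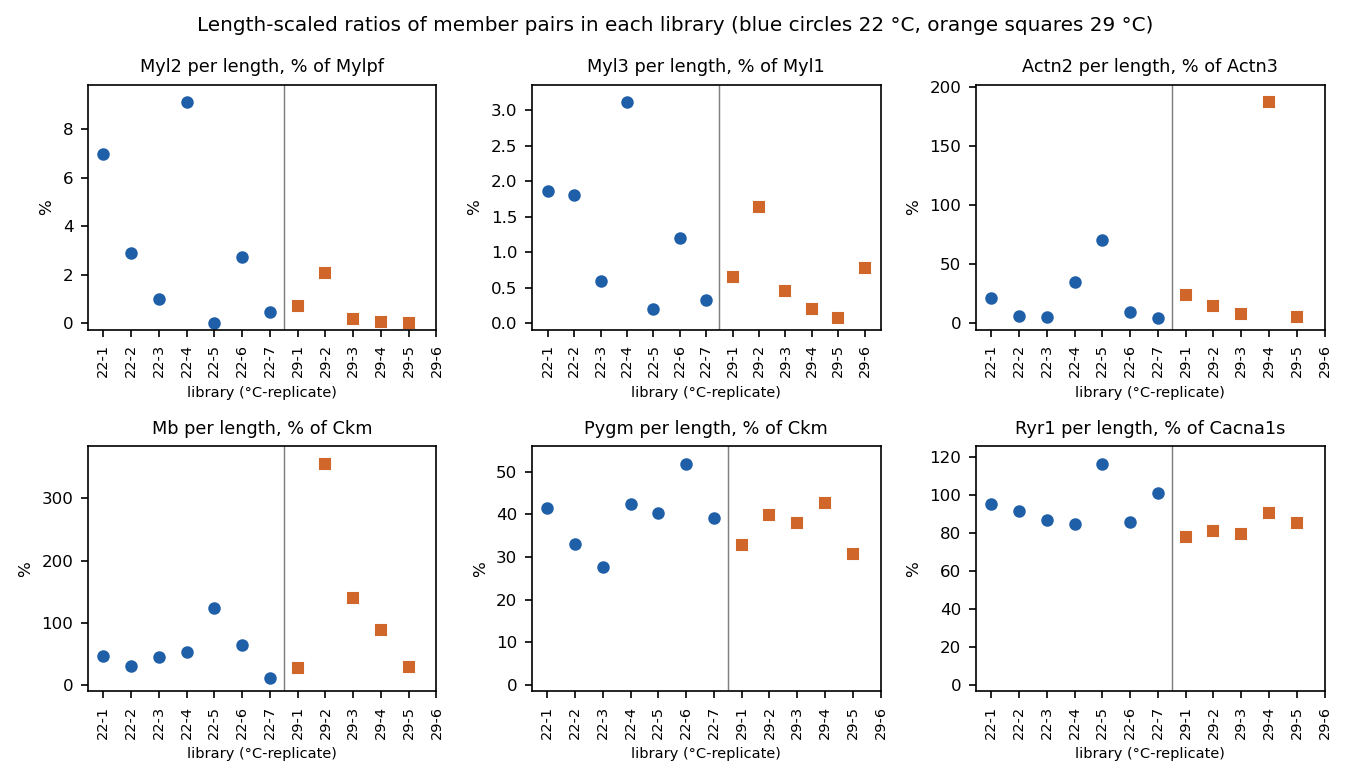
Level of a member per length as a percentage of its partner (vertical axis, each panel its own scale from 0) in each library (horizontal axis, temperature and replicate number; blue circles 22°C, orange squares 29°C). *Pygm* with *Ckm* and *Ryr1* with *Cacna1s* form nearly level rows, while *Myl2* with *Mylpf* runs from 0% to 9.12% and *Actn2* with *Actn3* from 4.24% to 187%; libraries where the partner had under 20 counts are not drawn.

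In the library with the least muscle RNA, 29°C replicate 6, a few members stood out from the rest. *Ckm* had 11 counts there, *Atp2a1* 24 and *Neb* 29, but *Acta1* had 1926 counts and *Myl1* 1429. *Phkg1* had 597, *Mb* 561, *Pfkm* 513 and *Tpm2* 218 counts. In all, 11 of the 42 members had at least 50 counts in this library and 18 had at most 3. Relative to the highest library of the same gene, *Phkg1* was at 11.9%, *Jph1* at 2.32%, *Casq2* at 2.30%, *Mb* at 1.92%, *Pfkm* at 1.75% and *Myl1* at 1.73%, whereas *Ckm* was at 0.00630% and *Pvalb* at 0.00295%. *Phkg1*, *Casq2* and *Mb* also had the 3 smallest fold changes of the list. *Acta1* is similar in sequence to *Acta2*, the actin of smooth muscle, which lay between 48.8 and 169.5 CPM, and how reads that fit both were counted is not given in the sources used here; its part in the *Acta1* level was not tested.

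Other genes of the same machinery, on lists of genes outside the 42, had like values. At 22°C all 26 other sarcomere genes were higher, by a median of 3.08 on the log2 scale, and none passed (edgeR; 18 at an unadjusted p below 0.05). *Myh4*, the myosin heavy chain of the fastest fibers and the most abundant of these, had 3.73 (edgeR P-adj = 0.242, with an SE of 1.62). All 12 other genes of muscle membrane and calcium and all 10 other muscle energy genes were also higher, with medians of 2.94 and 2.84, and none passed (11 and 10 at an unadjusted p below 0.05). The labels name the tissue as gluteal WAT, and these lists show skeletal muscle transcripts in it at shares that differed between mice.

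Markers of other cell types were measured in the same libraries. Of 10 cardiac genes only 3 could be tested, and their median was 0.055 on the log2 scale. *Nppb* and *Myl7* of this list had at most 3 counts in any library. *Myl4* and *Tnni3*, also on it, were found in every library, at 8.88 to 15.4 and 0.526 to 2.15 CPM. The cardiac sum was 46.9 CPM in 22°C replicate 7 and between 11.15 and 24.99 CPM in the other 12 libraries. The cardiac actin *Actc1*, also made in developing skeletal muscle, reached 34.6 CPM at 22°C (edgeR log2 fold change 1.63, SE 1.23, P-adj = 0.515). Smooth muscle genes had a median of 0.13, with 6 of 10 higher and none called (edgeR, 1 at an unadjusted p below 0.05). Their sum was likewise highest in 22°C replicates 7 and 1, at 988.5 and 743.9 CPM, against 317.6 to 732.4 CPM in the other 11 libraries. The most abundant gene of this list, *Synpo2*, ran from 71.4 to 427 CPM at 22°C. Its log2 fold change was 0.352, while those of *Acta2* and *Mylk* were -0.185 and -0.156. The part of each gene in the sum was not tested. Of 9 muscle regulators and satellite cell genes, 5 could be tested and had a median of 2.29, with none called (3 at an unadjusted p below 0.05). The mature adipocyte list had a median of -0.13, with 3 of 10 higher and 1 called lower at 22°C (edgeR; 2 at an unadjusted p below 0.05). Over all genes, 1.94% were called in either direction. The summed level of this list was 27000 and 23800 CPM in 22°C replicates 1 and 7 and between 30510 and 37580 CPM in the other 11 libraries. Brown fat genes, of which 3 of 6 tested were called higher where 0.731% of all genes were, also had their highest sums in 22°C replicates 1 and 7, at 174 and 134 CPM, against 45.8 to 76.0 CPM in the other mice at 22°C and 14.6 to 38.2 CPM at 29°C; *Cox8b* on that list is also made in muscle. Tendon genes summed to 128 CPM in 22°C replicate 4 and 73.5 CPM in replicate 1, but to 20.9 CPM in replicate 7. Their part in the muscle values was not tested.

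Lists of nerve, vessel, macrophage, blood and epithelial cells had medians below 0. Schwann cell genes had a median log2 fold change of -0.25 (1 of 6 higher), endothelial genes of -0.15 (0 of 5) and macrophage genes of -0.11 (2 of 5), with none called by edgeR (1, 1 and 0 at an unadjusted p below 0.05). Lymphocyte genes had a median of 0.78 with 1 of 5 called higher by edgeR, where 0.731% of all genes were. Blood genes had a median of -0.79, and their sum was highest in 29°C replicate 2, at 3363 CPM, where muscle RNA was low. Epithelial genes had a median of -1.98 over 3 genes tested.

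Of the 42 members, 18 have a close relative used by other tissues, and these relatives varied far less. The SD of log2 CPM over the 13 libraries had a median of 2.71 for the members and 0.27 for the relatives, and the member had the larger SD in all 18 pairs. *Ckb*, the brain-type creatine kinase, stayed between 40.7 and 76.0 CPM while *Ckm* ran from 0.462 to 7335 CPM. *Atp2a2*, the widespread calcium pump, stayed between 169.9 and 366 CPM beside *Atp2a1*, and *Actn4* between 321 and 475 CPM beside *Actn3*. Of 17 relatives tested, 8 had a higher mean level at 22°C, and the median fold change over the 17 was -0.004 on the log2 scale. A single one of the 17 was called, where 1.94% of all genes were. This was *Tpm4*, a tropomyosin of non-muscle cells, which fell by 0.60 on the log2 scale (edgeR P-adj = 0.0174, with an SE of 0.09), while its partner *Tpm2* had 2.85. Leaving out any 1 of the 13 libraries kept *Tpm4* below the threshold, but a term for the lower and higher totals did not (edgeR P-adj = 0.220), and over all alternatives P-adj lay between 1.98e-07 with DESeq2 and 0.231 in the libraries with higher totals. *Ryr3* was too low to be tested.

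**Figure D5:**
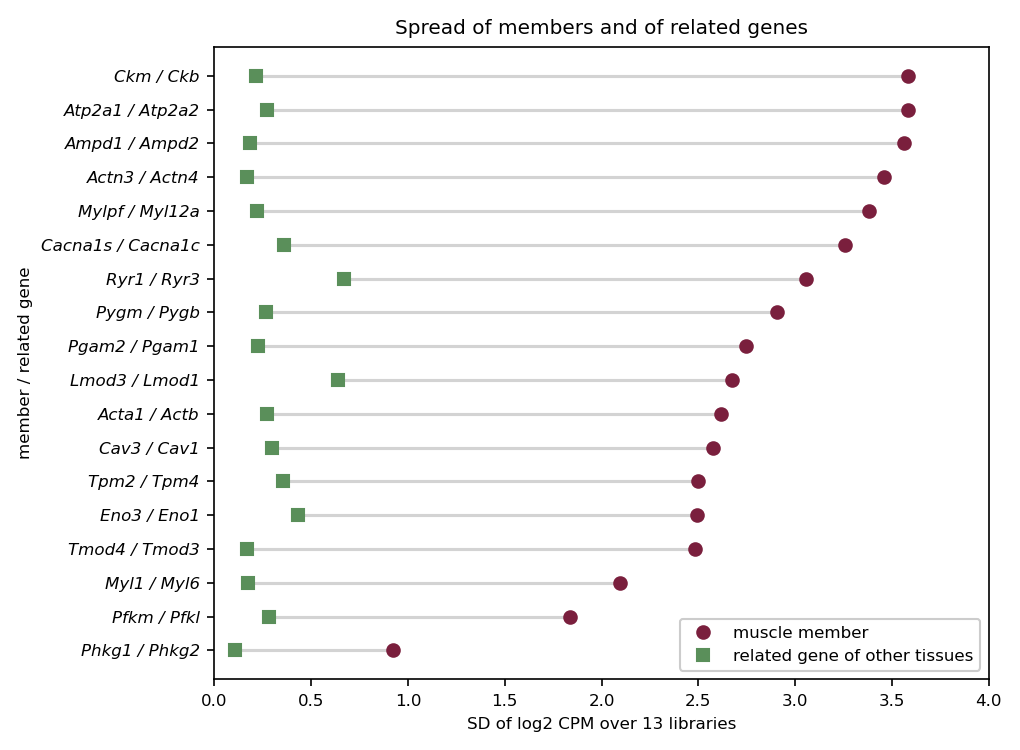
SD of log2 CPM over the 13 libraries (horizontal axis) for 18 members (circles) and a related gene used by other tissues (squares), with the pair named on the vertical axis. The relatives lie between 0.11 and 0.67 and every member lies to the right of its relative, with *Phkg1* the closest to its own.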

How the data were processed

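RNA-seq was run by the study on total RNA of gluteal WAT from 7 mice at 22°C and 6 at 29°C. Per the submitters' processing notes, the authors aligned reads with STAR 2.7.5a and counted them per gene with featureCounts, with FastQC for quality; these notes name GRCm39, while the study's methods name mm10 for its sequencing, so no coordinates of the count table are given. The deposited tables hold raw counts per gene (34419 genes, Ensembl IDs) and regularized log2 values that the authors made with DESeq2. Strand and the handling of reads with several matches are not given in the sources used here. Groups came from the sample titles, and each library is taken as 1 mouse.

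Counts were compared with edgeR 4.0.16 in R 4.3.3 (TMM, filterByExpr, quasi-likelihood F test, Benjamini-Hochberg over 17779 genes, P-adj below 0.1, no covariate). The SE of a fold change was taken from F as the log2 value over √F. Library sizes were scaled by TMM before CPM were formed, and log2 CPM had a prior count of 2. Levels per kb use exon lengths of GENCODE M21. Symbols were matched by Ensembl ID for 34006 of 34419 genes. Promoter windows are from RefSeq (GRCm38.p6). The tests were run on simulated counts first. The members and all gene lists were chosen with earlier results of these data known, so their counts are descriptions and no test was made over a list. Every member was named by role, and full values were given for the 2 most abundant of each role and for the largest and smallest fold change. Alternatives were DESeq2 1.42.0, other size factors, filters and thresholds, robust fitting, the replicate number as a block, the cluster of library totals, limma 3.58.1 on the deposited log2 values, an exact permutation test, and leaving out each library; leaving out both of the highest libraries, the ratio to *Ckm* and the ratios to *Acta1* without 29°C replicate 6 were added after the data were seen. Counts of 3 or fewer are at the floor, which covers counting error only.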

Additional observations from a re-analysis of the deposited data

How the results depend on the processing

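All 42 log2 fold changes were positive in each of 24 other fits, 13 that left out 1 library and 11 with other settings, with a median between 1.77 (limma on the deposited log2 values) and 3.68 (only libraries with higher totals); over the fits that left out 1 library each, the median ran from 2.455 to 3.52. Without both 22°C replicates 1 and 7, *Phkg1* reversed to -0.23. Members called by edgeR numbered 0, but 28 with DESeq2, 1 with the replicate block (*Myl2*), and from 0 to 3 when 1 library was left out; the cause was not tested. Genes called numbered 345, and 1676 with DESeq2, 42 with no filter on low counts, 4 with the cluster of totals as a covariate, 8 in the libraries with higher totals, 0 with the exact permutation test, 40 at P-adj below 0.05, and from 32 to 652 when 1 library was left out. The permutation test had none after adjustment but 7.26% of genes higher at an unadjusted p below 0.05. With 1716 divisions its smallest p was 0.000583, which limits what can pass after adjustment over 17779 genes. The median SD of the members at 29°C was 1.62 on the deposited log2 values, which are shrunken for low counts, and 2.56 on log2 CPM. Leaving out 1 library gave a median SD from 2.03 to 2.85 at 29°C and from 2.50 to 2.99 at 22°C.

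No source says that a replicate number marks a shared batch or litter. Deviations of same-numbered libraries correlated at 0.348 to 0.513 in 5 of 6 pairs and at 0.051 for replicate 5, against a median of -0.07 between different numbers (range -0.617 to 0.526). Of the libraries numbered 1 to 6, 4 at 22°C and 2 at 29°C correlated best with their own number. Since 1 pair was below 0.1, the numbers were not taken as pairs, though the other 5 leave a shared structure possible. With the replicate block, 263 genes (1.49%) and 1 member passed, *Myl2* at P-adj = 0.0377 (edgeR, against 0.123 without it), the median log2 fold change was 2.43, and that of *Phkg1* was 0.079 (against 0.93). For the level of each library, counts per kb gave another unit and no separate value to compare. Depth limited several members, among them *Myl2*, *Myl3*, *Myoz2*, *Casq2*, *Cav3* and *Lmod2*, which had few counts outside the libraries rich in muscle RNA. *Cav3* had at least 20 counts in only 7 libraries, as did *Myl3*, and *Lmod2* in 9.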
